A study of Mus musculus with 6 samples.

Results

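Genes of calcium handling and excitation-contraction coupling were examined in the hearts of mice with heart failure with preserved ejection fraction (HFpEF). They were chosen by name, as 35 of the 54532 genes in the deposited expression table, and were sorted by where their products act. The sarcoplasmic reticulum class held 13 genes, the sarcolemma class 11, the mitochondrial class 4, and the class of kinases, phosphatases and calmodulin 7. Male C57BL/6 mice, 6 to 8 weeks old at the start, made up both groups. For 12 weeks the HFpEF group ate a high-fat diet (60% of kcal from fat) and drank water with 0.5 g/L of L-NAME, which blocks nitric oxide synthases. The Chow group ate standard chow and drank regular water over the same time. RNA of the left ventricle was sequenced from 3 mice per group, 1 library per mouse. The labels call the tissue heart, and the study's methods name the left ventricle. Diet and L-NAME were always given together, so their parts in any difference cannot be told apart.

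Each heartbeat is a cycle of calcium. Depolarization opens the L-type calcium channel, calcium enters, and the ryanodine receptor releases much more from the sarcoplasmic reticulum, which makes the myofilaments contract. The muscle relaxes when the calcium pump SERCA2a returns calcium to the reticulum and the sodium-calcium exchanger carries the rest out of the cell. Phospholamban holds the pump back until it is phosphorylated, calmodulin and its kinase CaMKII adjust channels and release, and mitochondria take up part of the calcium. Impaired relaxation of the ventricle is a hallmark of HFpEF, which is why these genes are of interest in this model.

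The reading frames of 3 members are shown because their values are discussed together later. Pln encodes phospholamban, a peptide of 52 residues. Its coding sequence in the GENCODE annotation (GRCm38) is given 5′ to 3′ with codons 16 and 17 in capitals. These encode the serine that protein kinase A phosphorylates and the threonine that CaMKII phosphorylates, and either event releases the pump.
Pln: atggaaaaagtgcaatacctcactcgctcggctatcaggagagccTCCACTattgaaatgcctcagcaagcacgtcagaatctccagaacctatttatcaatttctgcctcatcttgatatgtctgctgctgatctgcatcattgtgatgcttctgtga
Calm2 and Calm3 are separate genes that encode the same calmodulin protein. Their coding sequences, each of 450 bases with the stop codon, differed at 78 positions and were 82.7% identical. The first 90 bases of each are given, with the 15 positions at which they differ in capitals.
Calm2: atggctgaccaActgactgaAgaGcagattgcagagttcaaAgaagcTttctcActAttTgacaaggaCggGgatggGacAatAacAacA
Calm3: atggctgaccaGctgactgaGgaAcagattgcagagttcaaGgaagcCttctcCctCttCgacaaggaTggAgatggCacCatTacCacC
Reads that cover these positions can be told apart, and the values below are for different transcripts of 1 protein.

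Expression is given as FPKM, a fragment count divided by exon length and by a size value for the library, so that levels can be compared between genes. That size value was not the read total. HFpEF replicate 3 had 15196287 reads and an implied divisor of 1.93e+07, while Chow replicate 1 had 15574914 reads and 1.42e+07. The deposited values thus already carried a scaling between libraries. All 35 members passed the minimum for testing, 0.5 FPKM in any 3 of the 6 libraries, as did 14225 genes in all. In Chow hearts the levels spanned from 2494 ± 113 (SD, n = 3) for Atp2a2 to 0.572 ± 0.0932 (SD, n = 3) for Fkbp1b. Atp2a2, Pln, S100a1, Hrc, Casq2 and Jph2 had a mean FPKM of at least 100 over the 6 libraries, and 16 members had a mean under 10. All values of the members came out as whole reads when FPKM was multiplied by exon length. Apart from a pair of genes, each member had at least 156 reads in every library. Fkbp1b had 7 to 8 reads in Chow and 12 to 40 in HFpEF, and Ppp1r1a had 9 to 26 and 22 to 25, so these genes are known only roughly at this depth.

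The groups were tested gene by gene with limma, fitted to log2(FPKM + 0.1), and p-values were adjusted by Benjamini-Hochberg over the 14225 genes. None of the 35 members passed an adjusted p of 0.05, a threshold that 14 genes (0.0984%) passed, 0.00703% lower and 0.0914% higher. The lowest adjusted p among the members was 0.115, for Slc8a1. At an unadjusted p under 0.05, 9 members had lower and 4 had higher expression in HFpEF hearts. This was 37.1% of the members, against 23.3% of all genes tested (13.1% lower and 10.2% higher). All 3 HFpEF libraries were below all 3 Chow libraries for 14 members, and all 3 were above for 4. That is 51.4% of the members, against 35.3% of all genes tested (19.7% lower and 15.6% higher). The 14 genes were Atp2a2, Pln, Ryr2, Casq2, Hrc, S100a1, Jph2, Cacna1c, Cacnb2, Slc8a1, Micu2, Smdt1, Letm1 and Camk2d. The 4 genes with higher values were Fkbp1b, Stim1, Atp2b4 and Ppp3ca. The median log2 fold change was −0.16 over the members and −0.01 over all genes tested, and 22 of 35 members and 51.2% of all genes had a value below 0. By class it was −0.33 for the sarcoplasmic reticulum, −0.06 for the sarcolemma, −0.39 for the mitochondrial genes and −0.11 for kinases, phosphatases and calmodulin. Without HFpEF replicate 3 these medians were −0.08, −0.10, −0.26 and 0.00036 in the same order, and that over all members was −0.08.

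The size of these differences and the calls depended on 1 library, and the directions on the scaling. HFpEF replicate 3 was the lowest HFpEF library for 22 of the 35 members and the highest for 9. Of the 14225 genes tested, it was lowest for 6243 and highest for 5472. At a mean FPKM of at least 100, it was lowest for all 6 members and for 280 of 355 genes tested. The median member lay at −0.07, −0.13 and −0.51 on the log2 scale relative to the Chow mean in HFpEF replicates 1, 2 and 3. The median of all genes tested lay at −0.0091, −0.0061 and −0.022. Without HFpEF replicate 3, 7 members were lower at an adjusted p under 0.05 from limma, namely Pln, Hrc, S100a1, Jph2, Slc8a1, Smdt1 and Letm1, and Cacna1h was higher. The same fit called 5.5% of all genes lower and 2.86% higher. The size of most differences was smaller in that fit, while the spread within the HFpEF group was smaller too. With quantile normalization 8 members were lower without overlap in place of 14, and with scaling to the total FPKM of nuclear genes 7 were, with 12 higher. The shares of all genes without overlap under these scalings were not computed. The nuclear total also moved the median log2 fold change of all genes to 0.24. With scaling to the cardiomyocyte markers, 17 members were higher and 0 lower at an adjusted p under 0.05, where 45.3% of all genes were higher and 0.105% lower. Under that scaling 20 members changed direction, among them Atp2a2, Ryr2, Casq2, Jph2, Slc8a1, Cacna1c and Cacnb2, Pln had 0.0183 on the log2 scale, and Hrc and S100a1 kept values below 0. The plot of log2 ratios by library gives all 35 members.

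**Figure D1:**
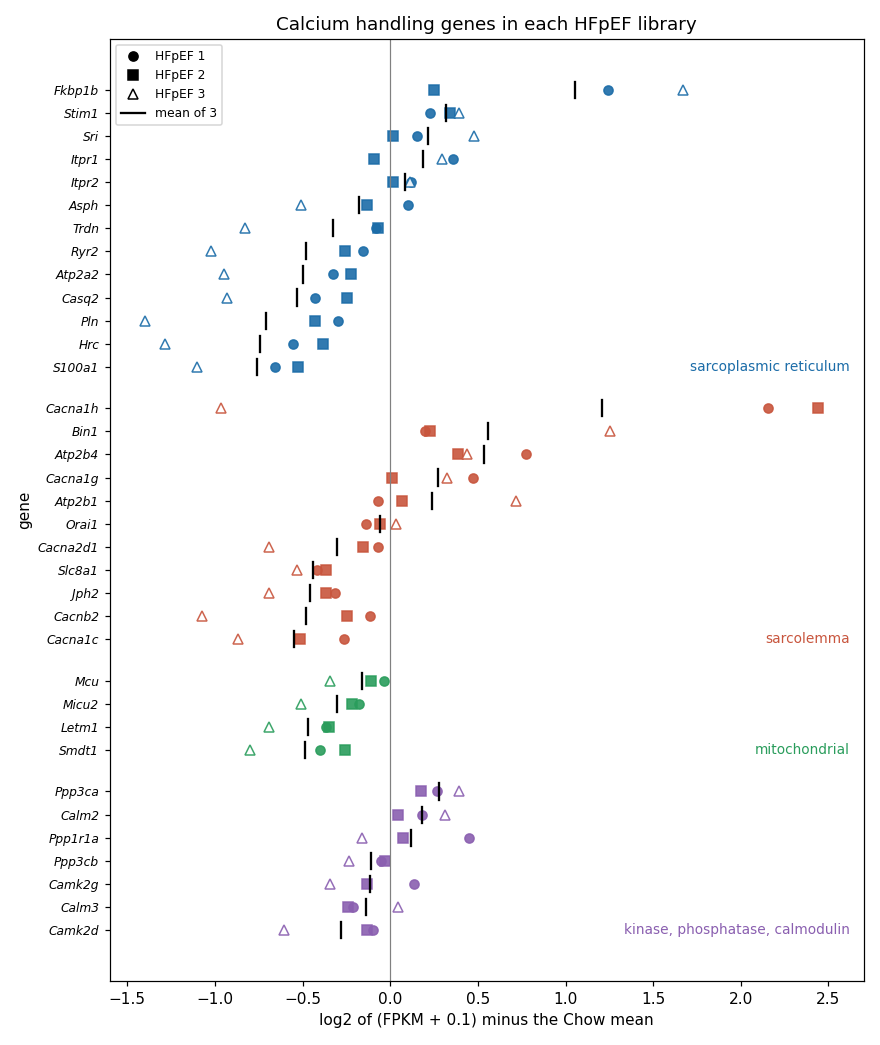
Each row is a gene and the x axis gives log2(FPKM + 0.1) in each HFpEF library minus the mean of the 3 Chow libraries, with the vertical bar at the mean of the 3 HFpEF libraries. The open triangles of HFpEF replicate 3 lie left of the other HFpEF libraries for 22 of 35 genes, among them most of the abundant sarcoplasmic reticulum genes. Of all 14225 genes tested, HFpEF replicate 3 was the lowest HFpEF library for 6243.

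Atp2a2 encodes SERCA2a, the pump that fills the sarcoplasmic reticulum during relaxation. The gene occupies chromosome 5 of GRCm38 between 122453513 and 122502225 (minus strand). In the order of the replicate numbers, its FPKM was 2524, 2368 and 2588 for Chow and 1994, 2131 and 1289 for HFpEF. All HFpEF libraries lay below all Chow libraries, and replicate 3 lay far below the other two. The mean of 1805 ± 452 (SD, n = 3) in HFpEF differed from the Chow mean by −27.6%, and the fitted difference was −0.50 on the log2 scale (standard error 0.25, adjusted p = 0.270). Without HFpEF replicate 3 the log2 fold change was −0.28 (adjusted p = 0.0653), and quantile normalization, which ranks genes within each library, turned it to 0.22.

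Pln (chromosome 10, 53337667 to 53345987, plus strand) had an FPKM of 612, 561 and 583 in Chow and 476, 435 and 222 in HFpEF. The groups did not overlap, and again HFpEF replicate 3 was lowest. In the fit this was a log2 fold change of −0.71 (standard error 0.30, adjusted p = 0.220), and −0.36 without HFpEF replicate 3 (adjusted p = 0.0350). The balance of phospholamban and its pump was also compared as a ratio within each library. The FPKM ratio of Pln to Atp2a2 was 0.243, 0.237 and 0.225 in Chow and 0.239, 0.204 and 0.172 in HFpEF. HFpEF replicate 1 lay within the Chow range, so the groups overlapped (0.235 ± 0.00874 against 0.205 ± 0.0334, SD, n = 3 each; exact permutation test, two-sided, p = 0.3, adjusted p = 0.48 over 8 ratios).

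S100a1 encodes a calcium sensor of muscle that enhances both SERCA2a and the ryanodine receptor. It had the lowest log2 fold change of the 35 members, −0.76 (standard error 0.19, adjusted p = 0.118). Its FPKM was 532, 522 and 498 in Chow and 329, 359 and 241 in HFpEF, a mean of 518 ± 17.3 against 310 ± 61.3 (SD, n = 3). The gap between the groups was wider than the range of either group. The difference was −0.59 without HFpEF replicate 3 (adjusted p = 0.0138), the lowest adjusted p of the 7 lower members in that fit.

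Ryr2, Casq2 and Hrc, 3 genes of the release unit, also had lower values in every HFpEF library than in every Chow library. Ryr2, the ryanodine receptor of the heart, had an FPKM of 68.8, 62.6 and 64.2 in Chow and 58.6, 54.4 and 32.1 in HFpEF (log2 fold change −0.48, standard error 0.23, adjusted p = 0.268). Casq2 encodes calsequestrin, which stores calcium beside the receptor. Its FPKM was 265, 306 and 304 in Chow and 217, 245 and 153 in HFpEF (log2 fold change −0.54, standard error 0.20, adjusted p = 0.192). Hrc encodes a histidine-rich protein that binds calcium in the reticulum, and it had 340, 325 and 343 in Chow and 229, 258 and 138 in HFpEF (log2 fold change −0.74, standard error 0.25, adjusted p = 0.162). For these 3 genes the groups did not overlap. Hrc was the one among them with an adjusted p under 0.05 without HFpEF replicate 3 (0.0201), where Ryr2 had 0.140 and Casq2 0.0828. The ratio of Casq2 to Ryr2 was 4.50 ± 0.556 in Chow and 4.33 ± 0.557 in HFpEF (SD, n = 3), with overlapping libraries.

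The anchors of the release unit overlapped between groups. Trdn encodes triadin, which ties calsequestrin to the receptor, and had 26.3 ± 2.40 in Chow and 21.5 ± 5.89 in HFpEF (SD, n = 3). Asph, the gene of junctin and of aspartate beta-hydroxylase, had 11.3 ± 0.106 and 10.1 ± 2.12. For Trdn, HFpEF replicates 1 and 2 lay within the Chow range and replicate 3 lay below it, with 14.7. For Asph, HFpEF replicate 1 lay above the Chow range of 11.2 to 11.4, with 12.1. HFpEF replicates 2 and 3 lay below that range, with 10.3 and 7.92.

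Fkbp1b, which encodes calstabin-2, a binding partner of the ryanodine receptor, had a log2 fold change of 1.05 (standard error 0.39, adjusted p = 0.187) on an FPKM of 0.481, 0.668 and 0.567 in Chow and 1.49, 0.694 and 2.03 in HFpEF. The gap between HFpEF replicate 2 and the highest Chow library was smaller than the SD of the Chow group. Sri encodes sorcin, a calcium-dependent inhibitor of release, and had 8.31 ± 0.788 in Chow and 9.74 ± 1.67 in HFpEF (SD, n = 3), with overlap. The receptors for inositol trisphosphate, a second release channel, had low levels in both groups. Itpr1 had 4.33 ± 0.196 in Chow and 4.99 ± 0.822 in HFpEF and Itpr2 had 2.12 ± 0.0535 and 2.25 ± 0.0926, both with overlap. Stim1, the sensor that reports an empty store to the cell surface, had 2.64, 2.59 and 2.26 in Chow and 2.94, 3.18 and 3.30 in HFpEF. All HFpEF libraries were higher for Stim1, by a log2 fold change of 0.32 (standard error 0.13, adjusted p = 0.201). Its partner channel Orai1 overlapped between groups, with 6.97 ± 1.20 and 6.64 ± 0.400.

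**Figure D2:**
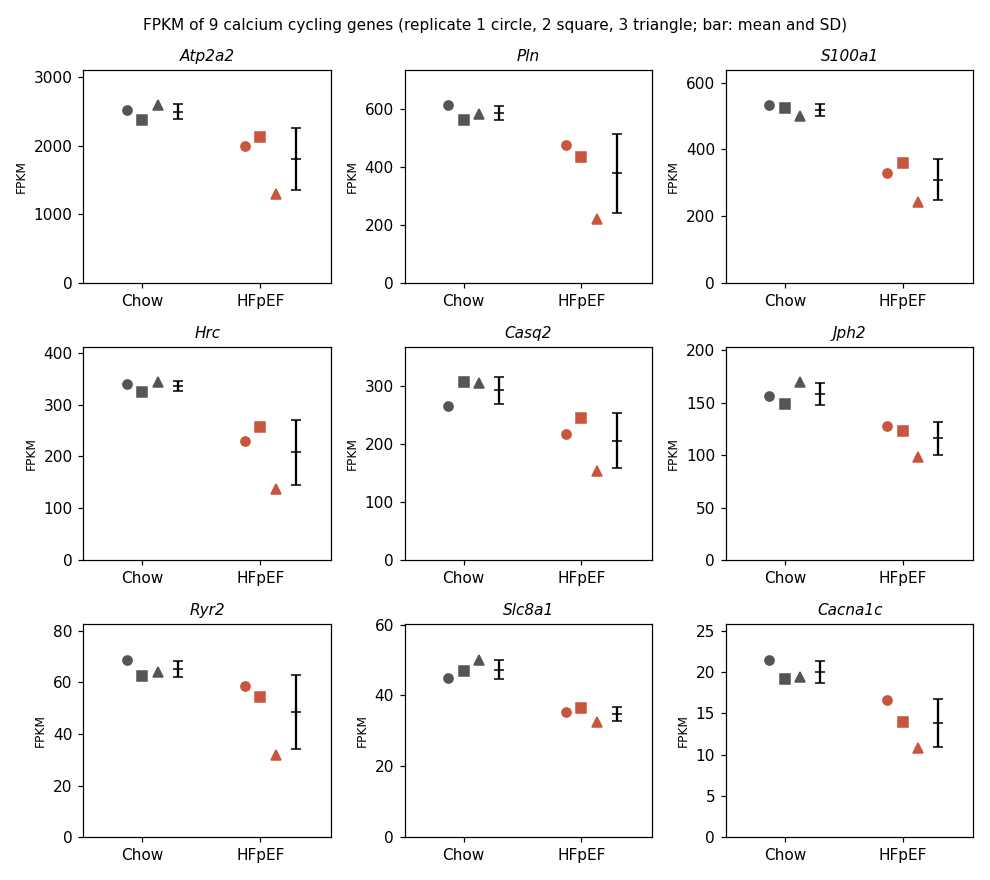
FPKM on linear axes from 0 for 9 genes of the calcium cycle, with 1 point per library (grey for Chow, red for HFpEF; circle, square and triangle for replicates 1, 2 and 3) and the mean with its SD beside each group. In all 9 genes the 3 HFpEF points lie below the 3 Chow points, and the triangle of HFpEF replicate 3 is the lowest.

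At the cell surface, the sodium-calcium exchanger gene Slc8a1 had the most even difference between libraries. Its FPKM was 45.0, 46.8 and 50.1 in Chow and 35.3, 36.6 and 32.6 in HFpEF, and HFpEF replicate 3 was close to the other two. The mean was 47.3 ± 2.60 in Chow and 34.9 ± 2.01 in HFpEF (SD, n = 3). The log2 fold change of −0.44 had a standard error of 0.10 (adjusted p = 0.115), and without HFpEF replicate 3 it was −0.40 (adjusted p = 0.0304). Relative to the pump, which removes the same calcium by the other route, the exchanger had a ratio of 0.0190 ± 0.00103 in Chow and 0.0201 ± 0.00455 in HFpEF, with overlap and p = 1 in the exact permutation test.

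The L-type channel showed lower values in its pore and beta subunits. Cacna1c, the pore subunit, had 21.5, 19.1 and 19.4 in Chow and 16.6, 13.9 and 10.9 in HFpEF (log2 fold change −0.55, standard error 0.17, adjusted p = 0.143). Cacnb2, the beta subunit that brings the pore to the membrane, had 6.44, 6.37 and 6.49 in Chow and 5.95, 5.41 and 3.00 in HFpEF (log2 fold change −0.48, standard error 0.25, adjusted p = 0.292). Neither gene overlapped between groups. Cacna2d1, the alpha-2-delta subunit, had 20.7 ± 1.38 and 17.0 ± 3.73 (SD, n = 3) with overlap. The ratio of Cacnb2 to Cacna1c overlapped as well (0.323 ± 0.0202 and 0.341 ± 0.0581). Jph2 encodes junctophilin-2, which holds the surface membrane and the reticulum together. It had 157, 149 and 169 in Chow and 127, 122 and 97.9 in HFpEF (log2 fold change −0.46, standard error 0.15, adjusted p = 0.155), and −0.34 without HFpEF replicate 3 (adjusted p = 0.0437).

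Bin1 encodes amphiphysin-2, which shapes the transverse tubules. It had 5.10, 5.08 and 6.38 in Chow and 6.33, 6.43 and 13.2 in HFpEF. HFpEF replicate 1 fell within the Chow range, and HFpEF replicate 3 had about the summed value of the other two. The calcium pump of the plasma membrane is encoded by Atp2b1 and Atp2b4. Atp2b4 had 3.98, 3.05 and 4.21 in Chow and 6.43, 4.88 and 5.06 in HFpEF, with no overlap (log2 fold change 0.53, standard error 0.17, adjusted p = 0.155). Atp2b1 overlapped, with 8.21 in HFpEF replicate 3 and 4.62 to 5.46 in Chow. Without HFpEF replicate 3 the log2 fold change was −0.0017 for Atp2b1 and 0.21 for Bin1, and neither passed the test in any fit that left out 1 library. Fibroblast and macrophage markers were also highest in HFpEF replicate 3, as described below, and their part in these values was not tested.

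The T-type channels Cacna1g and Cacna1h open at low voltage and are known from the sinus node, the atria and the developing heart. Cacna1h (chromosome 17, 25374285 to 25433783, minus strand) had 1.88, 2.22 and 2.76 in Chow and 10.5, 12.7 and 1.11 in HFpEF. HFpEF replicates 1 and 2 were well above Chow and HFpEF replicate 3 was below it. In the fit this was a log2 fold change of 1.21 (standard error 0.87, adjusted p = 0.415), and of 2.30 without HFpEF replicate 3 (standard error 0.18, adjusted p = 0.0105). The same HFpEF libraries had high atrial markers. Myl7, the atrial myosin light chain, had 3.81, 0.289 and 237 in Chow and 975, 2073 and 8.60 in HFpEF. Sln encodes sarcolipin, the atrial inhibitor of the SERCA pump. Sln had 0 in Chow replicates 1 and 2, 54.5 in Chow replicate 3 and 219, 431 and 1.37 in HFpEF. The 5 listed atrial markers summed to 13.3, 16.2 and 538 in Chow and to 2453, 3834 and 20.6 in HFpEF. In Chow replicate 3, where the atrial sum was 538, Cacna1h was the highest of the Chow values. The part of atrial tissue in the Cacna1h values was not tested. Cacna1g overlapped between groups, with 2.69 ± 0.297 and 3.28 ± 0.540.

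**Figure D3:**
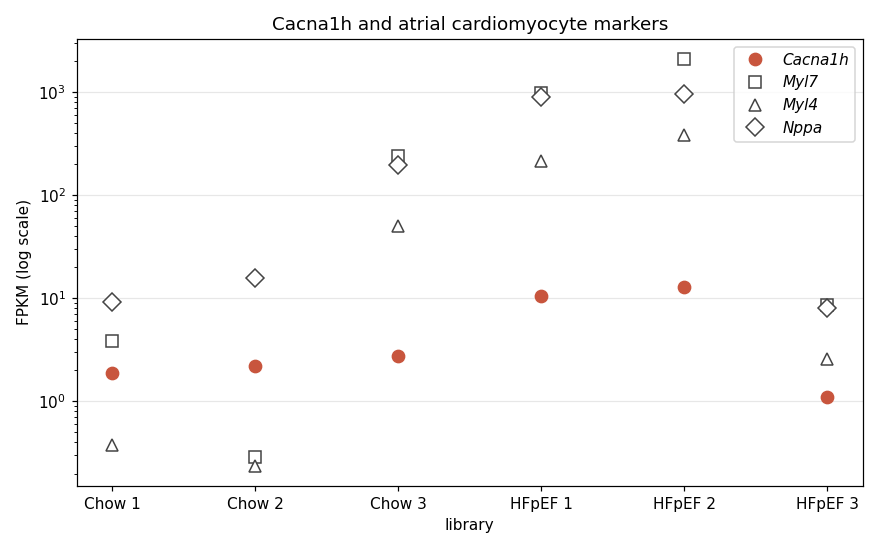
FPKM on a log axis in each library for Cacna1h (filled circles) and the atrial genes Myl7, Myl4 and Nppa (open symbols). Cacna1h was 10.5 and 12.7 in HFpEF replicates 1 and 2, where the atrial genes were highest, and 1.11 to 2.76 in the other 4 libraries.

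All 4 mitochondrial members had log2 fold changes below 0, which turned above 0 for all 4 with scaling to the cardiomyocyte markers and for Mcu with the nuclear FPKM total. Smdt1 encodes EMRE, a small subunit that the uniporter needs to work, and had 55.6, 57.9 and 55.5 in Chow and 42.7, 47.0 and 32.3 in HFpEF (log2 fold change −0.49, standard error 0.16, adjusted p = 0.155). Letm1, a protein of the inner membrane involved in cation exchange, had 11.7, 12.2 and 12.1 in Chow and 9.31, 9.39 and 7.41 in HFpEF (log2 fold change −0.47, standard error 0.12, adjusted p = 0.119). Micu2, a gatekeeper of the uniporter, had 34.0 ± 1.64 and 27.7 ± 3.36 (SD, n = 3). For these 3 genes the groups did not overlap, and without HFpEF replicate 3 the adjusted p was 0.0430 for Smdt1, 0.0366 for Letm1 and 0.142 for Micu2. Mcu, the pore of the uniporter, had 2.57, 3.16 and 3.11 in Chow and 2.86, 2.71 and 2.29 in HFpEF, with overlap and a log2 fold change of −0.16.

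Relative to the pore, its partners were lower in all 3 HFpEF libraries. The ratio of Smdt1 to Mcu was 21.6, 18.3 and 17.8 in Chow and 14.9, 17.3 and 14.1 in HFpEF, and that of Micu2 to Mcu was 12.5, 11.0 and 11.3 in Chow and 10.5, 10.8 and 10.4 in HFpEF. Neither ratio overlapped between groups. Both had p = 0.1 in the exact permutation test, the smallest that 3 libraries against 3 can give, and an adjusted p of 0.267 over the 8 ratios. Mcu rested on 254 to 319 reads per library. Transcripts encoded by the mitochondrial genome took 24.0% to 26.0% of reads in Chow and 22.6%, 20.1% and 7.17% in HFpEF replicates 1, 2 and 3, and 10 of the 13 listed were lower without overlap. Their part in the values above was not tested.

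Among the calcium-dependent enzymes, Ppp3ca and Camk2d had no overlap between groups. Ppp3ca encodes a catalytic subunit of calcineurin, the phosphatase of the NFAT pathway, and had 7.57, 7.70 and 7.90 in Chow and 9.31, 8.75 and 10.2 in HFpEF (log2 fold change 0.28, standard error 0.10, adjusted p = 0.173). The other catalytic subunit, Ppp3cb, overlapped (10.4 ± 0.701 and 9.67 ± 0.741). Camk2d, the main CaMKII isoform of the heart, had 8.31, 7.80 and 8.34 in Chow and 7.63, 7.42 and 5.31 in HFpEF (log2 fold change −0.28, standard error 0.16, adjusted p = 0.315). HFpEF replicates 1 and 2 were close to the lowest Chow library. Camk2g overlapped (12.0 ± 0.299 and 11.2 ± 1.89), and so did the ratio of Camk2d to Camk2g (0.680 ± 0.0406 and 0.607 ± 0.0625). Ppp1r1a, which encodes an inhibitor of protein phosphatase 1, had 1.04 ± 0.414 and 1.10 ± 0.260 on 9 to 26 reads.

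Calmodulin is made from several genes, and the balance of its transcripts was compared within libraries. Calm2 had 70.0, 72.8 and 75.2 in Chow and 82.7, 75.0 and 90.4 in HFpEF, and Calm3 had 75.0, 84.5 and 80.1 in Chow and 68.8, 67.5 and 82.1 in HFpEF. Each gene overlapped between groups, with log2 fold changes of 0.18 (adjusted p = 0.381) and −0.14 (adjusted p = 0.525). Their ratio within a library did not overlap. Calm2 to Calm3 was 0.934, 0.862 and 0.940 in Chow and 1.20, 1.11 and 1.10 in HFpEF, so the more abundant transcript was Calm3 in every Chow library and Calm2 in every HFpEF library. The mean ratio was 0.912 ± 0.0433 and 1.14 ± 0.0553 (SD, n = 3), with p = 0.1 in the exact permutation test (adjusted p = 0.267 over the 8 ratios). A ratio of FPKM within a library does not depend on its scaling, but it does depend on the exon lengths used for each gene. Translated over their whole length, the coding sequences of Calm2 and Calm3 give the same protein.

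Bulk ventricle RNA holds all cell types of the tissue, and fewer cells of a type and less RNA per cell cannot be told apart. A list of 13 cardiomyocyte genes, called ventricular markers here, was therefore examined beside the members. Whether these genes are confined to the ventricle was not tested. All 13 of them were lower in every HFpEF library than in every Chow library, with a median log2 fold change of −0.71. They included Actc1, Mb, Myh6 and Myl3, which encode sarcomere proteins and myoglobin. Their summed FPKM was 22391 to 24234 in Chow and 10854 to 16138 in HFpEF, lowest in HFpEF replicate 3. The endothelial list summed to 237 to 271 and 195 to 212, with 3 of 8 genes lower without overlap.

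Members with higher levels had lower log2 fold changes. Spearman's correlation between the mean FPKM over 6 libraries and the log2 fold change was −0.75 across the 35 members and −0.28 across all genes tested. It is a description across genes, which share libraries and scaling and are not independent. The 6 members at an FPKM of at least 100 had a median log2 fold change of −0.62, and all 355 tested genes at that level had −0.60. All 6 of these members were lower without overlap, as were 71% of the 355 genes, while 6.48% of the 355 were higher without overlap. The 19 members at 10 or more had a median of −0.46, against −0.19 for 3694 genes, and 12 of them were lower without overlap (63.2%, against 43.1%, with none higher against 10.6%). The 16 members under 10 had a median of 0.23, against 0.05 for 10531 genes.

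**Figure D4:**
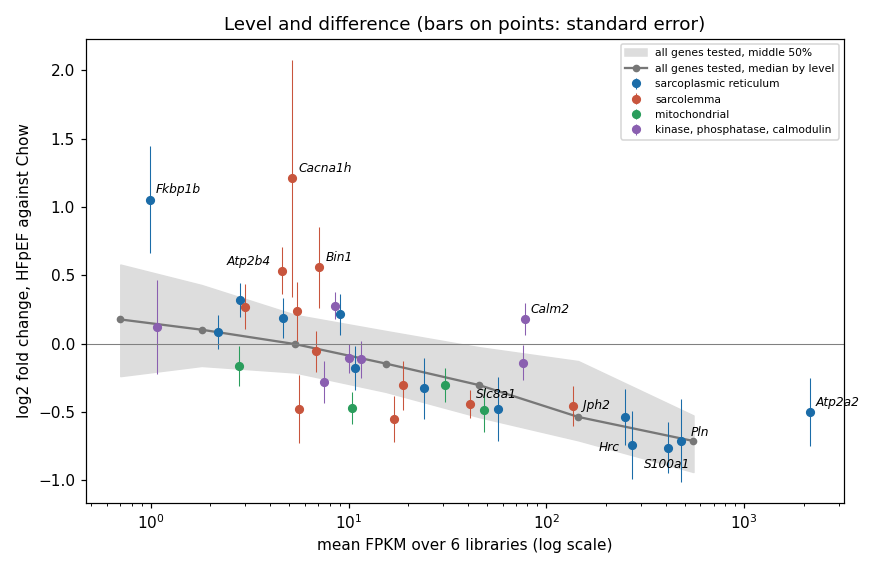
Mean FPKM over the 6 libraries (log axis) against the log2 fold change of each member with its standard error, with the median (line) and the middle 50% (grey band) of all genes tested at each level. The 6 members at an FPKM of at least 100 have a median of −0.62 and all genes at that level −0.60, and Atp2a2 lies further right than the last bin's median.

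Each member was also expressed relative to the summed FPKM of the 13 ventricular markers, a comparison added after the data were seen. On this scale none of the members was lower without overlap, and 28 were higher. Of all genes tested, 0.387% were lower and 72.7% were higher. Among the 355 genes with a mean FPKM of at least 100, 40.8% were higher and 3.38% lower, and of the 6 members at that level Atp2a2, Casq2 and Jph2 were higher. The 7 members with overlap were Pln, Ryr2, Hrc, S100a1, Cacna1c, Cacna1h and Cacnb2. Per 1000 units of marker FPKM, Atp2a2 had 107 ± 6.00 in Chow and 126 ± 6.75 in HFpEF (SD, n = 3), without overlap. S100a1 had 22.2 ± 1.60 and 21.8 ± 0.691, Pln 25.1 ± 1.96 and 26.0 ± 5.10, and Hrc 14.4 ± 0.722 and 14.4 ± 1.64. For these 3 genes the values relative to the markers overlapped between groups. Jph2 had 6.76 ± 0.383 and 8.25 ± 0.719, and Slc8a1 had 2.02 ± 0.0404 and 2.51 ± 0.429, both higher relative to the markers without overlap.

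**Figure D5:**
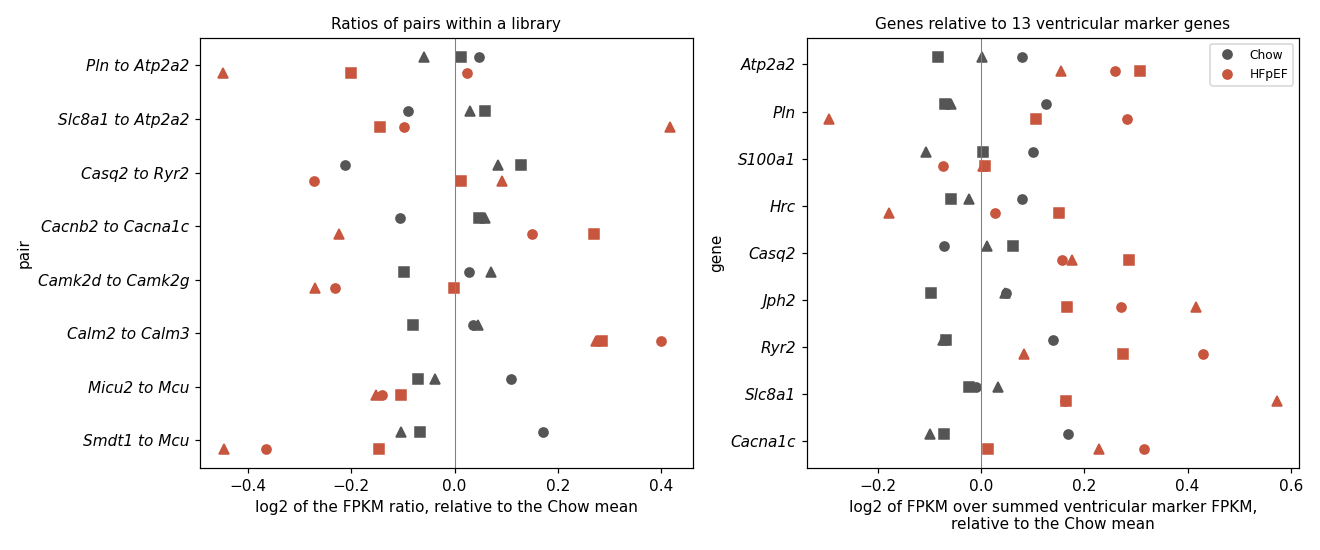
Left, log2 of the FPKM ratio of 8 gene pairs in each library, relative to the Chow mean; right, log2 of FPKM over the summed FPKM of 13 ventricular marker genes for 9 members (circle, square and triangle for replicates 1, 2 and 3). On the left, Calm2 to Calm3, Micu2 to Mcu and Smdt1 to Mcu do not overlap between groups; on the right, Atp2a2, Casq2, Jph2 and Slc8a1 are higher in every HFpEF library, and Pln, S100a1, Hrc, Ryr2 and Cacna1c overlap.

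Markers of other cells also differed, unevenly between the HFpEF libraries. The 8 fibroblast genes summed to 264 to 313 in Chow and to 520, 570 and 5383 in HFpEF replicates 1, 2 and 3, and 7 of them were higher without overlap. The sum in HFpEF replicate 3 came mostly from collagen genes, with 2252 for Col1a1, 1810 for Col3a1 and 702 for Col1a2. Dcn of the same list differed little between the HFpEF libraries, with 177, 168 and 196. The 8 macrophage genes summed to 233 to 295 in Chow and to 289, 393 and 950 in HFpEF, with 3 higher without overlap. The smooth muscle and pericyte list summed to 264 to 307 in Chow and to 676, 203 and 506 in HFpEF, with 1 of 7 tested genes lower without overlap. Of the adipocyte genes, Car3 and Cfd had at most 0.03 FPKM in Chow and 7.82 to 37.8 in HFpEF, and 5 of 6 tested genes were higher without overlap, 4 of them at an adjusted p under 0.05 (limma). Fabp4, the most abundant of that list, was lower without overlap, with 84.3 to 94.8 in Chow and 60.5 to 69.8 in HFpEF (log2 fold change −0.49). Of the 11 skeletal muscle genes, Myh4 and Tnnc2 had 0 reads in all 6 libraries, and the sum of 28.3 to 172 in Chow and 40.5 to 64.4 in HFpEF came mostly from Acta1, which heart muscle also expresses. The part of these cells in the members' values was not tested.

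A wider list of 71 symbols of the same pathway was examined for context, of which 70 matched the table and 55 passed the FPKM minimum. None of the 55 passed an adjusted p of 0.05. At an unadjusted p under 0.05, 16 were lower and 4 higher (36.4%, against 23.3% of all genes), and the median log2 fold change was −0.11. Without overlap between groups, 20 were lower and 7 higher (49.1%, against 35.3% of all genes). Without HFpEF replicate 3, 7 were lower and 2 higher at an adjusted p under 0.05. Camk1d, a calmodulin-dependent kinase, had 1.04, 1.03 and 0.790 in Chow and 3.53, 4.83 and 2.52 in HFpEF (log2 fold change 1.78, standard error 0.26, adjusted p = 0.0757, and 0.0132 without HFpEF replicate 3). It passed with no filter on low values (adjusted p = 0.0204) and with scaling to the nuclear FPKM total (adjusted p = 0.0328). Gem, a small GTPase that inhibits L-type channels, had 2.80, 2.23 and 1.89 in Chow and 5.73, 4.77 and 8.54 in HFpEF (log2 fold change 1.40, standard error 0.25, adjusted p = 0.0963, and 0.0399 with no filter). Cacna1d, a second L-type pore, had 0.262 to 0.362 in Chow and 0.566 to 1.26 in HFpEF, and Cacng6, a gamma subunit, had 1.97 to 3.98 and 0.550 to 1.64. These 4 genes were named by a rule that required no overlap between groups, so its absence in them was fixed in advance.

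Lower values were found in the wider list for Tmem38a, which encodes a cation channel of the sarcoplasmic reticulum, and for Myoz2, which encodes calsarcin-1, an anchor of calcineurin at the sarcomere. Tmem38a had a log2 fold change of −0.75 (standard error 0.27, adjusted p = 0.178) and Myoz2 −0.80 (standard error 0.26, adjusted p = 0.159). Cav3, the caveolin of muscle, had 46.2, 44.2 and 45.5 in Chow and 35.7, 31.9 and 24.1 in HFpEF (log2 fold change −0.59, adjusted p = 0.124). The outer mitochondrial channels Vdac1 and Vdac2 had log2 fold changes of −0.58 and −0.50. Ank2, which encodes the ankyrin that places the exchanger, had −0.54, and Ppp3cc, another calcineurin subunit, had −0.44. The absence of overlap in all 7 was likewise required by the naming rule. With scaling to the cardiomyocyte markers, Cav3, Vdac1, Vdac2, Ank2 and Ppp3cc had values above 0.

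The RefSeq promoters on GRCm38.p6 were read for 24 of the 35 members, some with more than 1 start, giving 29 windows. Those of Pln and Slc8a1 are shown, as an abundant and a less abundant gene that were both lower without overlap. Each is the 250 bases before the annotated start, 5′ to 3′ on the gene's strand, with matches to TATAAA on that strand and to AGATAA or its complement TTATCT in capitals. The Pln window is chr10:53337436-53337685 on the plus strand, its last bases reaching into the GENCODE gene, and the Slc8a1 window is chr17:81738388-81738637 on the minus strand.
Pln: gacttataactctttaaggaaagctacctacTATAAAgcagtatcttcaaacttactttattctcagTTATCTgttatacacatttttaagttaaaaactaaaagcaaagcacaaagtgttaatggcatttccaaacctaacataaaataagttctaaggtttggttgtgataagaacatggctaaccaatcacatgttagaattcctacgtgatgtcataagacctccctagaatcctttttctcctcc
Slc8a1: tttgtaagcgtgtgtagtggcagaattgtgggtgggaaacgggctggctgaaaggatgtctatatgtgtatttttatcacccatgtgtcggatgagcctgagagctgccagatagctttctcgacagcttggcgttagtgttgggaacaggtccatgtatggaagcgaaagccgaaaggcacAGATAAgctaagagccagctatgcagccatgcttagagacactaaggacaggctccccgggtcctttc
Pln held both motifs and Slc8a1 the second. TATAAA was found in 7.59% of all 32851 promoters of that length and in 1 of the 29 windows. The GATA letters AGATAA, on either strand, were found in 9.99% of all promoters and in 3 of the 29, those of Pln, Slc8a1 and Atp2b4. The GC box GGGCGG, on either strand, was found in 32.7% of all promoters and in 17 of the 29, from 15 members. The MEF2 and CArG box motifs were found in 0.508% and 1.47% of all promoters and in none of the 29. These are matches of letters, and binding was not measured.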

How the data were processed

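Left ventricular RNA of 3 Chow and 3 HFpEF mice was analysed. Per the study's methods the authors aligned reads with HISAT2 and counted them with featureCounts. The deposited table holds FPKM. The submitters' processing notes name GRCm38 (mm10), and the annotation is not given in the sources used here. Exon lengths and symbols came from GENCODE M21, which held 54495 of the 54532 identifiers. FPKM times exon length gave whole reads for 96.1% to 96.2% of values (relative tolerance 1e-06), 13076772 to 15574914 reads per Chow library and 13461735 to 16027084 per HFpEF library. The steps also showed a scaling between libraries that the sources do not describe.

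Libraries were brought to 1 scale by median-of-ratios factors (1.00 to 1.01), and log2(FPKM + 0.1) was fitted for the 14225 genes that reached 0.5 FPKM in 3 or more libraries, with limma 3.58.1 in R 4.3.3 (lmFit, eBayes with trend and robust). Calls had a Benjamini-Hochberg adjusted p under 0.05. A fold on this scale understates the change of low genes. Gene ratios were compared with a two-sided exact permutation test. The rest used scipy 1.17.1, pandas 2.3.3, numpy 2.4.6 and matplotlib 3.10.9 under Python 3.11.15. On simulated data of 14220 genes for this comparison, the fit called 27 of 100 genes changed by a log2 of 1 and 97 of 100 changed by a log2 of 2, with 8 false calls. The simulation gave every gene the same spread between mice (negative binomial dispersion 0.05) and let no library deviate from its group.

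All 35 members are named. Of the wider list, up to 12 genes with the largest fold change were named among those with an unadjusted p under 0.05 and no overlap, and of each marker list (ventricular and atrial cardiomyocyte, skeletal muscle, fibroblast, endothelial, smooth muscle and pericyte, macrophage, adipocyte, mitochondrially encoded) up to 4 of the most abundant. Members, lists, ratios and tests were chosen with earlier results of these data known. Alternatives were FPKM as deposited, quantile normalization, scaling to cardiomyocyte markers or to the nuclear FPKM total, no filter, a minimum of 1 FPKM, pseudocounts of 1 and 0.01, eBayes without trend or robust, voom on recovered reads, a replicate block, and leaving out each library. Levels relative to summed ventricular markers were added after seeing the data. The study's proteomics and physiology were not analysed here. One gene that the naming rule covers is not reported here.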

Additional observations from a re-analysis of the deposited data

How the results depend on the processing

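Of the 35 members, the direction of every one stayed the same and none passed an adjusted p of 0.05 with FPKM as deposited, pseudocounts of 1 and 0.01, eBayes without trend or robust options, voom on recovered reads and no filter, with a lowest adjusted p (limma) between 0.0940 and 0.139. With a minimum FPKM of 1, 34 members were tested and the same held. FPKM as deposited was nearly the same data as the main fit, whose scaling factors were 1.00 to 1.01. Its agreement was therefore fixed in advance and says nothing about the scaling. The cause of the changes below was not tested, apart from the shift that a scaling gives to all genes.

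Scaling to the cardiomyocyte markers moved the median of all genes to 0.70 and scaling to the nuclear FPKM total moved it to 0.24. Relative to these the median member lay at −0.15 under both, as in the main fit. A scaling shifts all genes by nearly the same amount, so this agreement was fixed in advance. With the cardiomyocyte markers, 17 members were higher at an adjusted and 24 at an unadjusted p under 0.05, 0 were lower, and 28 were higher and 0 lower without overlap, the same as relative to the summed ventricular markers (28 and 0). In the wider list 18 and 31 were higher and 0 lower. The medians were 0.54 for the members, 0.40, 0.66, 0.34 and 0.61 for the sarcoplasmic reticulum, sarcolemma, mitochondrial and kinase classes, and 0.61 for the wider list. Members that changed direction under it were Atp2a2 (0.23), Pln (0.0183), Ryr2 (0.25), Casq2 (0.19), Trdn (0.40), Asph (0.54), Jph2 (0.27), Cacna1c (0.17), Cacnb2 (0.23), Cacna2d1 (0.42), Slc8a1 (0.29), Orai1 (0.66), Mcu (0.54), Micu2 (0.42), Smdt1 (0.24), Letm1 (0.25), Camk2d (0.44), Camk2g (0.61), Calm3 (0.59) and Ppp3cb (0.61), and in the wider list Cav3 (0.14), Vdac1 (0.14), Ank2 (0.17), Vdac2 (0.22) and Ppp3cc (0.28). With the nuclear total, 1 member was lower and 9 higher at an unadjusted p under 0.05, 7 and 12 without overlap, and in the wider list 2 were lower and 9 higher, 1 of them at an adjusted p under 0.05. The medians were 0.0814 for the members, −0.13 for the mitochondrial and 0.14 for the kinase class and 0.14 for the wider list, and Asph (0.0714), Orai1 (0.19), Mcu (0.0814), Camk2g (0.14), Calm3 (0.12) and Ppp3cb (0.14) changed direction. With quantile normalization, 4 members and 9 of the wider list were lower at an unadjusted p under 0.05 and 8 members lower without overlap, and Atp2a2 (0.22), Itpr2 (−0.0533), Calm3 (0.11) and Ppp1r1a (−0.0495) changed direction. With no filter 2 members were higher at an unadjusted p under 0.05, and in the wider list 10 were lower at an unadjusted p under 0.05 and 2 were higher at an adjusted p under 0.05. Shares over all genes were not computed for quantile normalization, the nuclear total and no filter, nor for unadjusted p-values under the cardiomyocyte markers.

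Leaving out 1 library at a time, the members lower numbered 0 to 7 at an adjusted and 3 to 13 at an unadjusted p under 0.05, and those higher 0 to 1 and 0 to 5. Without overlap 14 to 17 were lower and 4 to 9 higher. In the wider list 0 to 7 were lower at an adjusted and 4 to 17 at an unadjusted p under 0.05, and 0 to 2 and 3 to 5 were higher. All calls at an adjusted p under 0.05 came without HFpEF replicate 3. Apart from the adjusted calls of the fit without HFpEF replicate 3, shares over all genes were not computed for these counts. Leaving out a library also makes an absence of overlap easier for every gene. The median of the members ran from −0.24 to −0.08 and that of the wider list from −0.21 to −0.11. By class it ran from −0.46 to −0.08 for the sarcoplasmic reticulum, −0.20 to 0.0418 for the sarcolemma, −0.44 to −0.26 for the mitochondrial and −0.10 to 0.00036 for the kinase class, highest without HFpEF replicate 3 for all but the sarcolemma, which was highest without Chow replicate 2. The log2 difference between groups ran from −0.12 to 0.16 for Slc8a1 to Atp2a2, from −0.16 to 0.0523 for Casq2 to Ryr2 and from −0.0367 to 0.21 for Cacnb2 to Cacna1c, and the other 5 ratios kept their direction. Log2 fold changes that crossed 0 were those of Atp2b1 (−0.0017 to 0.39), Orai1 (−0.20 to 0.0418), Camk2g (−0.24 to 0.00036) and Ppp1r1a (−0.21 to 0.35).

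Same-numbered libraries did not deviate together (correlations of −0.04, −0.07 and −0.06), so the values gave no sign that the numbers pair the mice. Deviations from a mean of 3 libraries cannot exclude a pairing. With a replicate block 6 members were lower and 2 higher at an unadjusted p under 0.05, and none passed an adjusted p of 0.05. The share over all genes was not computed for that fit. In simulated data the fit called 27 of 100 genes changed by a log2 of 1, and apart from Fkbp1b and Cacna1h the members had smaller fitted changes. The simulation had the same spread setting for every gene and no library that deviated as HFpEF replicate 3 did. Its rate of calls may therefore not hold for these libraries.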

Other observations

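Some paralogs that are known from other tissues had low levels beside the members (genes named here were chosen after their values were seen). Others did not. Camk2a had a Chow mean of 9.15 FPKM, where the member Camk2d had 8.15. Ryr1 and Ryr3, the ryanodine receptors of skeletal muscle and brain, had at most 0.0351 and 0.540 FPKM in any library, while Ryr2 had 32.1 to 68.8. Atp2a1, the fast skeletal SERCA, had at most 0.561. Slc8a2 and Slc8a3, the other exchangers of the Slc8 family, had at most 0.718 and 0.321. Of the L-type pores, Cacna1s had 2.08 to 2.34 in Chow and 2.07, 1.88 and 0.443 in HFpEF.

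Cacna2d2, an alpha-2-delta subunit, had 0.300 to 0.666 in Chow and 6.32, 0.824 and 0.0717 in HFpEF replicates 1, 2 and 3. Bmp10, an atrial gene of the marker list, had 148 in HFpEF replicate 1 and at most 0.03 in the other libraries. Rrad, a GTPase that restrains the L-type channel, had 77.0 to 123 in Chow and 85.8, 66.7 and 34.1 in HFpEF, with overlap.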
